A study of Mus musculus with 4 samples.

Results

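The comparison described here is that of the suprachiasmatic nucleus (SCN) of hypophysectomized mice (HPX, pituitary gland removed) with that of control mice (non-HPX), both collected at ZT2 (Zeitgeber time, counted from lights on), in the early light phase. The mice lived under 12 h of light and 12 h of darkness. The comparison rests on 2 of the 4 arrays of the series, 1 for each surgical state, and was read as the HPX value minus the non-HPX value on the log2 scale. The other 2 arrays are HPX and non-HPX SCN at ZT14, early in the dark phase. The labels name no strain, allele, age or sex, and their genotype field holds the surgical state alone, without saying whether the non-HPX mice had a sham operation. Laser microdissection was used to take the tissue, and the design text gives pools of 10 animals at each time without saying how many came from each surgical state. Genes were described when the higher of their values at ZT2 reached the median of all genes' higher values, a floor of 5.96 (log2), which kept 11090 of 22180 genes. Just inside the floor lay Pigw (5.96 in non-HPX and 5.81 in HPX) and Catsperg1 (5.63 and 5.96), and just outside it Vamp8 (5.96 and 5.85) and Gm6194 (5.90 and 5.96).

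The pituitary sends adrenocorticotropic hormone, thyroid-stimulating hormone, growth hormone, prolactin and the gonadotropins into the blood, and through them drives the adrenal cortex, the thyroid and the gonads. Removing it takes away these hormones and most of the glucocorticoid, thyroid hormone and sex steroid that they call for. The operation also cuts the axons of the oxytocin and vasopressin neurons of the paraventricular and supraoptic nuclei, which end in the posterior lobe. The SCN, which lies near these nuclei, holds the master circadian clock and is made of GABA neurons that carry peptides such as VIP, GRP, neuromedin S, prokineticin 2 and vasopressin.

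The tissue carried the markers of the SCN in both states. Vip stood at 11.62 in non-HPX and 11.75 in HPX at ZT2, Six6, a homeobox gene of the anterior hypothalamus, at 8.83 and 8.70, and Lhx1, a factor of SCN neurons, at 8.12 and 8.07. The 7 pituitary hormone genes (those of growth hormone, prolactin, proopiomelanocortin and the glycoprotein hormone subunits) all lay below the floor at ZT2. The Y-linked genes Eif2s3y, Kdm5d and Uty lay between 7.76 and 8.36 on the 4 arrays and Xist between 3.18 and 3.50. Across the 11090 genes Pearson's r between the ZT2 arrays was 0.9864, a value across genes, which are not replicates. The number of arrays limits the precision.

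Most expressed genes stood slightly lower in HPX at ZT2: the median difference was -0.06, and 7250 genes (65.4%) lay below 0. This median depended on the scaling, at -0.02 after cyclic loess, -0.03 after quantile normalization and -0.12 after median centring. The SD of the difference over genes was 0.19. Over all 41345 probesets the ZT2 array of HPX had the higher median value, 5.52 against 5.45 in non-HPX. Its values also had the smaller SD, 2.03 against 2.06. How far these features of the whole array enter the differences was not tested. For 304 genes with several probesets at or above the floor, the ZT2 difference varied between probesets of a gene with an SD of 0.15. This SD covers the probes, not the animals or the arrays. A difference of 1.5-fold, 0.585 on the log2 scale and 3.93 times that SD, was used as a rule of size. By it 69 genes (0.622% of those expressed) were lower and 27 (0.243%) were higher in HPX, with 5 and 2 of them at least 2-fold apart. The higher genes made 28.12% of these 96, and 14.06% after each array was centred on its median, where 110 genes were lower and 18 higher. With 1 array in a group no test of the ZT2 difference was available. An additive limma fit of surgery and time over all 4 arrays tested the effect shared by both times. In it 15 genes (0.135%) fell and 0 rose at a Benjamini-Hochberg adjusted p of 0.05, with 510 genes at an unadjusted p under 0.05. All 15 were among the 69, and since the fit includes the ZT2 arrays that chose them, its p-values are no separate evidence for the ZT2 difference.

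**Figure D1:**
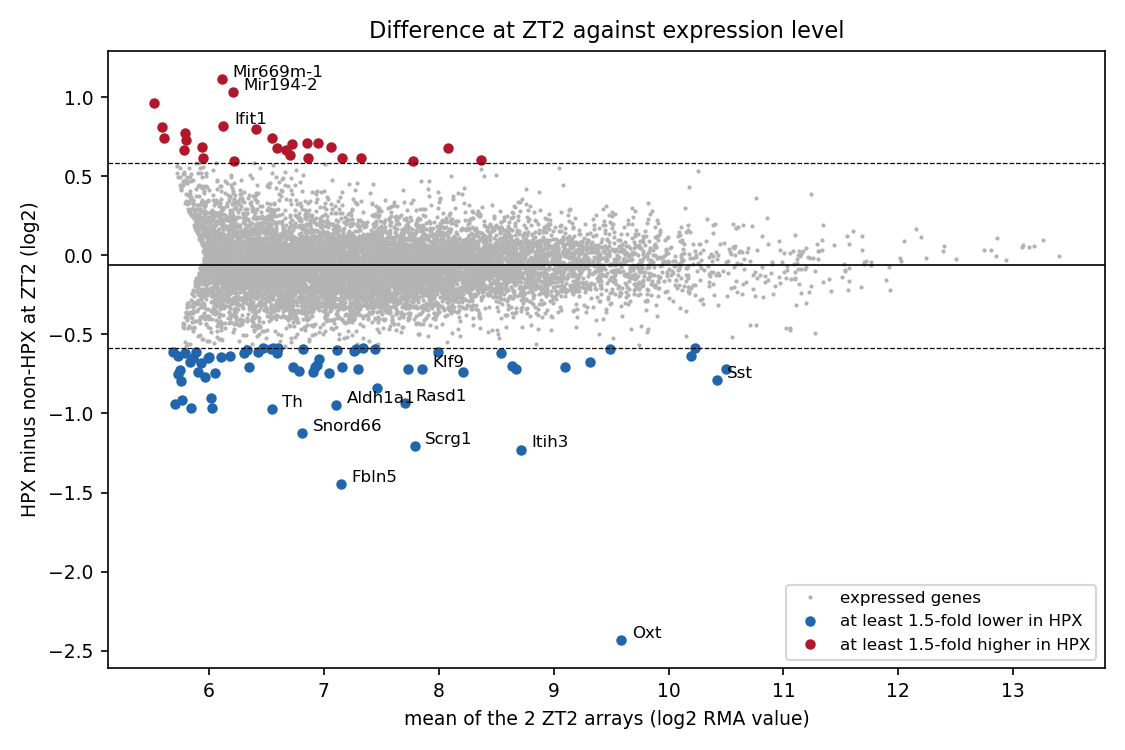
HPX minus non-HPX at ZT2 (vertical axis, log2) against the mean of the ZT2 arrays (horizontal axis, log2 RMA value) for the 11090 expressed genes; each point is a gene, the solid line the median of -0.06 and the dashed lines 1.5-fold. The 69 lower genes run over the whole range of levels, while the 27 higher genes lie toward its lower end, and Oxt stands apart at -2.43.

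Genes of peptide and amine neurons held some of the largest differences. Oxt (probeset 17376372), which encodes oxytocin, stood at 10.80 in non-HPX and 8.37 in HPX at ZT2, and at 10.75 and 9.28 at ZT14. The ZT2 difference was -2.43, 5.39-fold lower in HPX and the furthest from 0 of all 11090 genes. Both HPX arrays lay below both non-HPX arrays, as in 17.9% of all genes, and a large ZT2 difference favours this. The limma fit gave -1.95 ± 0.19 (SE, adjusted p = 0.00786). Th (probeset 17498171), the rate-limiting enzyme of catecholamine synthesis, stood at 7.03 and 6.06 at ZT2 and at 6.89 and 5.86 at ZT14, 1.96-fold and 2.05-fold lower (limma, -1.003 ± 0.11; adjusted p = 0.0127). Sst (probeset 17329423), which encodes the inhibitory peptide somatostatin, stood at 10.81 and 10.03 at ZT2 and at 10.91 and 10.13 at ZT14, 1.73-fold and 1.72-fold lower (limma, -0.78 ± 0.11; adjusted p = 0.0413). Oxt therefore differed less at ZT14 than at ZT2, while Th and Sst differed by nearly the same amount at both times; whether the times differ was not tested.

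The promoters of these genes are shown because they belong to the neuronal genes with the largest differences and hold short elements known from hormone and cyclic AMP signalling. They are the 250 bases before the RefSeq start (GRCm38.p6), printed 5′ to 3′ on the gene's strand. Capitals in Oxt (chr2:130575919-130576168, plus strand) mark the nuclear receptor half-site AGGTCA or its reverse complement, which begin 185 and 166 bases before the start. Capitals in Th (chr7:142899996-142900245, minus strand) and Sst (chr16:23890845-23891094, minus strand) mark the cyclic AMP response element TGACGTCA, which begins 45 and 48 bases before the start.
Oxt: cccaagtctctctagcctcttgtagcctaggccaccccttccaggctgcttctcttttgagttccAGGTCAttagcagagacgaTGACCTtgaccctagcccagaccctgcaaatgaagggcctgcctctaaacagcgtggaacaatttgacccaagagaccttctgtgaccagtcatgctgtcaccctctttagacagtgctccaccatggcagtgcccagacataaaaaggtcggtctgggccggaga
Th: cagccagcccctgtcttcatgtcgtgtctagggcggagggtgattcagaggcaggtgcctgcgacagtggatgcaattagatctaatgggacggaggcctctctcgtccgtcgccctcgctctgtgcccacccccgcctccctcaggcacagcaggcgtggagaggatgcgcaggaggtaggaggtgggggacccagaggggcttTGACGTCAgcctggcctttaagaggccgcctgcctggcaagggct
Sst: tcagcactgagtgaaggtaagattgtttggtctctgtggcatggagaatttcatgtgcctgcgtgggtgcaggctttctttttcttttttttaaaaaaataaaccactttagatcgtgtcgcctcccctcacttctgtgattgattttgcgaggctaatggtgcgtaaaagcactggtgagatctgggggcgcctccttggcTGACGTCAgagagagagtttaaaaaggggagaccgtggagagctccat
Of the 69 lower genes, 44 had a promoter in the table, and of the 11090 expressed genes 8740 had one. The half-site, searched on both strands, was in 8 of 44 (18.18%; Oxt, Zfp764, Gm20783, Paqr6, Mfsd2a, Lsm11, Asic1 and Morc2b) against 12.04% of all. The cyclic AMP element was in 3 (6.82%; Th, Sst and Ttc16) against 3.11%, and the E-box CACGTG in 3 (6.82%; Ceacam1, Pcx and Sgsh) against 9.95%. The full glucocorticoid response element (AGAACA, 3 bases of any kind, TGTTC) was in 0 of 44 and in 1 of all 8740. These shares are descriptions, and a match is not a binding site.

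The list of hypothalamic peptides and amine enzymes had 24 genes, 23 of them measured, and 13 expressed at ZT2. Of these 11 were lower and 2 higher, where 65.4% of all genes were lower. By 1.5-fold 3 were lower (Oxt, Th and Sst), against 0.622% of all genes. The median was -0.38 against -0.06 over all expressed genes. Avp, which encodes vasopressin, stood at 11.29 in non-HPX and 10.82 in HPX at ZT2 and was 0.17 higher in HPX at ZT14. Tac2, the neurokinin B precursor, differed by -0.44, the vesicular monoamine transporter Slc18a2 by -0.38, thyrotropin-releasing hormone Trh by -0.38, galanin (Gal) by -0.35 and Cartpt by -0.35. At ZT14 Trh differed by -0.52 and Gal by -1.09. Npy and the enkephalin precursor Penk were the members above 0, at 0.07 and 0.12. Trh and Sst, which encode peptides that can be released into the pituitary portal blood, were both lower at both times. Avp was lower at ZT2 alone, and Crh, Ghrh and Gnrh1 lay below the floor. Which neurons gave these transcripts was not tested.

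Markers of neurons that lie outside the SCN were set beside these values. Of 13 such markers (magnocellular and other hypothalamic neurons), 12 were measured and 7 expressed, 6 of them lower and 2 past 1.5-fold, with a median of -0.38. Sim1, a factor of paraventricular and supraoptic neurons, stood at 6.25 in non-HPX and 5.99 in HPX at ZT2. The summed level of the 12 genes (log2 of the sum of linear values) was 12.40 in non-HPX and 11.58 in HPX at ZT2, and 12.41 and 12.11 at ZT14. The list holds Oxt and Th themselves, and Avp, which SCN neurons also make. Without Oxt and Th, 4 of 5 expressed markers were lower at ZT2 (65.4% of all genes were), none past 1.5-fold, with a median of -0.25, and the summed level of 10 genes was 11.77 in non-HPX and 11.38 in HPX at ZT2. At ZT14 it was 11.81 and 11.87. Avp is the largest member of this sum and stood at 11.33 in non-HPX and 11.50 in HPX at ZT14. The median of the 5 expressed markers was -0.16 at ZT14. Of these Trh (-0.52), Sim1 (-0.18) and Npy (-0.16) were lower, and Avp (0.17) and Hdc (0.27) higher. Pmch, Hcrt, Crh, Tbr1 and Otp lay below the floor. How far the amount of neighbouring tissue in each pool enters the Oxt and Th values was not tested. In pooled tissue fewer cells of a type and less RNA in each cell cannot be told apart.

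Fbln5, Itih3 and Scrg1 had the lowest ZT2 differences after Oxt. Fbln5 (probeset 17283380), a fibulin of elastic fibres, stood at 7.87 in non-HPX and 6.42 in HPX at ZT2 and at 7.74 and 6.73 at ZT14, 2.72-fold and 2.02-fold lower. Itih3 (probeset 17304434), a chain that stabilises hyaluronan, stood at 9.33 and 8.11 at ZT2 and at 9.26 and 8.03 at ZT14, 2.34-fold and 2.33-fold lower. Scrg1 (probeset 17501283) stood at 8.39 and 7.19 at ZT2 and at 8.40 and 7.05 at ZT14, 2.31-fold and 2.54-fold lower. For all 3 both HPX arrays lay below both non-HPX arrays. This held for 17.9% of all genes, and the choice of the lowest genes at ZT2 favours it. Itih3 and Scrg1 moved little between the times, while Fbln5 in HPX moved from 6.42 to 6.73. By limma they fell, Fbln5 by 1.23 ± 0.13 (adjusted p = 0.012), Itih3 by 1.23 ± 0.11 (adjusted p = 0.00564) and Scrg1 by 1.27 ± 0.11 (adjusted p = 0.00564).

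Enzymes and transporters followed. Aldh1a1 (probeset 17358103), which makes retinoic acid, stood at 7.58 in non-HPX and 6.64 in HPX at ZT2 and at 7.52 and 6.16 at ZT14. Etnppl, a phosphoethanolamine lyase of astrocytes, stood at 9.03 and 8.31 at ZT2 and at 9.46 and 8.45 at ZT14. Mfsd2a, the lysophospholipid carrier of the blood-brain barrier, stood at 8.09 and 7.37 at ZT2 and at 8.58 and 7.76 at ZT14. For these 3 genes the ZT14 difference was the larger, at -1.36, -1.01 and -0.83 against -0.94, -0.72 and -0.72 at ZT2. The cytochrome P450 gene Cyp4f15 (6.46 and 5.56 at ZT2), the growth factor Gdf10 (6.33 and 5.36) and the Wnt antagonist Sfrp5 (6.18 and 5.24) had HPX values below the floor, so the size of their differences is uncertain. All 6 fell in the limma fit, with adjusted p from 0.0127 (Aldh1a1) to 0.0418 (Mfsd2a). Kcnj10, the inwardly rectifying potassium channel of astrocytes, stood at 9.46 and 8.75 at ZT2 and at 9.42 and 8.84 at ZT14. Named after its values were seen, it did not pass the fit (-0.64 ± 0.11; adjusted p = 0.148).

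The matrix list had 25 genes, all measured and 19 expressed, 4 of them through 1 array alone. At ZT2 13 were lower and 6 higher, where 65.4% of all genes were lower. By 1.5-fold 2 were lower (Fbln5 and Itih3), against 0.622% of all genes, and the median was -0.16. Sparc differed by -0.44 and the perineuronal net protein Tnr by -0.40, while Ecm2 stood 0.36 higher in HPX at ZT2 and 0.35 higher at ZT14. The other fibulins stood above 0, Fbln1 by 0.15 and Fbln2 by 0.26 at ZT2. At ZT14 the list median was 0.05, and the same 2 genes were past 1.5-fold.

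**Figure D2:**
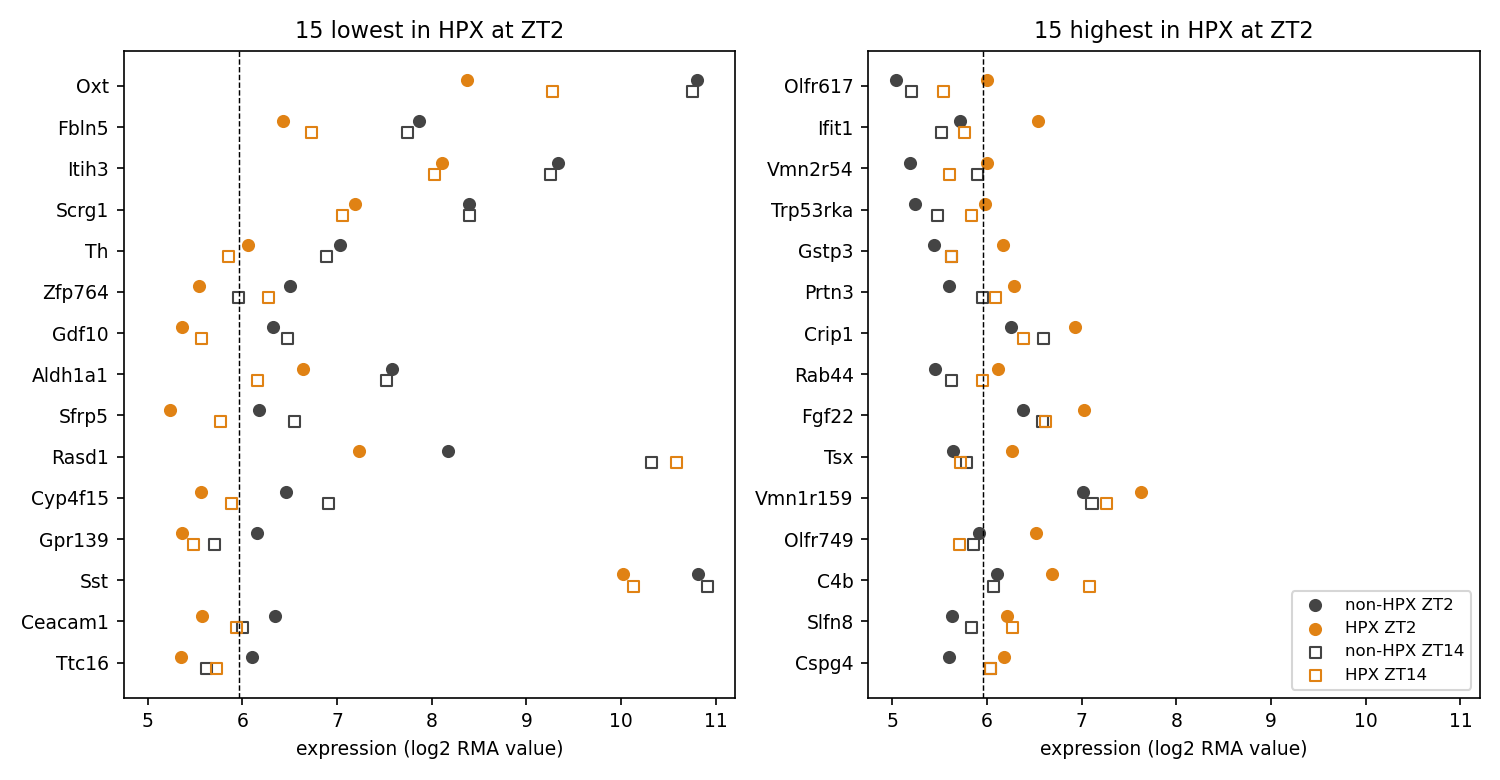
Expression (log2 RMA value) of the 15 lowest and 15 highest genes at ZT2 outside predicted and non-coding names; filled circles are ZT2 arrays, open squares ZT14 arrays, grey non-HPX and orange HPX, 1 array each, and the dashed line is the floor of 5.96. Oxt, Fbln5, Itih3, Scrg1, Th and Sst keep HPX and non-HPX apart at both times, whereas Rasd1 and Zfp764 do not, and most of the highest genes lie close to the floor.

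Several of the low genes had ZT14 differences near 0 or above it. Rasd1 (probeset 17263511), a small G protein that glucocorticoids induce, stood at 8.17 in non-HPX and 7.24 in HPX at ZT2, but at 10.33 and 10.59 at ZT14. Jun, a component of the AP-1 transcription factor, stood at 7.51 and 6.80 at ZT2 and at 7.42 and 7.47 at ZT14. Zfp764, a zinc finger gene, stood at 6.51 and 5.54 at ZT2 and at 5.96 and 6.27 at ZT14. HPX was thus the lower state at ZT2 and the higher one at ZT14 in these 3 genes, by little in Jun; none passed the limma fit, which measures the shared effect (Rasd1, -0.34 ± 0.22; adjusted p = 1). The receptor Gpr139 (6.15 and 5.36), the adhesion molecule Ceacam1 (6.35 and 5.58) and Ttc16 (6.10 and 5.35) had HPX values below the floor at ZT2, and differed by -0.22, -0.07 and 0.10 at ZT14. Among genes chosen after their values were seen, the membrane protease Mmp14 stood at 7.28 and 6.54 at ZT2 and at 6.23 and 6.39 at ZT14. The paranodal protein Cntnap1 stood at 7.56 and 6.96 at ZT2 and at 7.20 and 7.26 at ZT14.

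The 27 higher genes were set beside the 69 lower ones by name. Of the 27, 15 were predicted or non-coding, 9 of those being miRNA genes. Of the 69, 13 were predicted or non-coding, with 1 miRNA gene. Of the other 12 higher genes, 4 were olfactory or vomeronasal receptors, which are genes of the sensory epithelia, against 0 of the 69. Among all 11090 expressed genes 136 were miRNA genes and 14 olfactory receptors. The share of all predicted or non-coding names there was not counted. In 12 of the 27 the non-HPX value lay below the floor, against 22 of the 69 lower genes in which the HPX value did. Ifit1, an interferon-induced antiviral protein, stood at 5.72 in non-HPX and 6.53 in HPX at ZT2 and at 5.51 and 5.76 at ZT14. The cysteine-rich protein Crip1 stood at 6.25 and 6.93 at ZT2 and at 6.60 and 6.38 at ZT14, so its order turned. The fibroblast growth factor Fgf22 stood at 6.38 and 7.02 at ZT2 and at 6.59 and 6.61 at ZT14. Olfr617, Vmn2r54, Trp53rka, Gstp3, Prtn3, Rab44 and Tsx reached the floor in HPX alone at ZT2, with differences from 0.62 to 0.96, as did Olfr749 at 0.60; Vmn1r159 stood at 7.01 and 7.63. Cspg4, Slfn8 and the complement gene C4b were the highest genes just short of 1.5-fold, at 0.58 each. Of these, C4b stood at 6.10 and 6.68 at ZT2 and at 6.07 and 7.08 at ZT14. Olfactory receptors, Slfn8, Gstp3 and C4b have near-identical relatives in the genome, so their values may hold signal from several genes.

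The 9 miRNA genes are the largest named class among the higher genes, and RefSeq (GRCm38.p6) pairs 7 of them with 10 mature sequences. Those printed below, 5 sequences, belong to the 4 genes whose non-HPX array at ZT2 stood apart from the other 3 arrays. Mir194-2 stood at 5.69 in non-HPX and 6.72 in HPX at ZT2 and at 6.88 and 6.79 at ZT14. Mir1943 stood at 6.01 and 6.81 at ZT2 and at 6.77 and 6.68 at ZT14, and Mir483, which lies in Igf2, at 6.34 and 7.01 and at 7.17 and 7.17. In these 3 genes the non-HPX array at ZT2 was the low one and the other 3 arrays lay close together. The same holds for Mir185 (6.72 and 7.40 at ZT2, 7.31 and 7.30 at ZT14). Mir669m-1 (5.55 and 6.67 at ZT2, 5.05 and 5.58 at ZT14) was higher in HPX at both times, and Mir467e (8.06 and 8.67) by 0.16 at ZT14. Mir3473d, Mir1963 and Mir1898 differed by 0.71, 0.62 and 0.59 at ZT2 and by -0.09, 0.06 and -0.28 at ZT14. Capitals mark the seed, bases 2 to 8, which chooses the targets of a miRNA, and the 10 sequences had no seed in common.
mmu-miR-194-5p: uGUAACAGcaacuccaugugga
mmu-miR-1943-5p: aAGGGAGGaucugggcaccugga
mmu-miR-483-5p: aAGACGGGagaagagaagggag
mmu-miR-483-3p: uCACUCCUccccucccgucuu
mmu-miR-185-3p: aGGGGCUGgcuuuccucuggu
The arrays were labelled from total RNA with a whole-transcript kit, and which form of a miRNA gene's RNA gave the signal was not tested. Over the 136 expressed miRNA genes (484 measured), 86 were higher at ZT2, against 34.5% of all genes. By 1.5-fold 9 were higher and 1 lower, against 0.243% and 0.622% of all genes. Their median was 0.07 at ZT2 and -0.00 at ZT14, against -0.06 and 0.01 over all genes. Mir194-2 and Mir669m-1 reached the floor in HPX alone at ZT2, so they had to be higher there. Mir3070a, the miRNA gene 1.5-fold lower, reached it in non-HPX alone. How many of the 136 reached the floor through 1 array was not counted, so the filter may enter these counts.

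Small nucleolar RNA (snoRNA) genes were the largest named class among the lower genes, with 10 of 69. Box C/D snoRNAs (Snord) guide methylation of ribosomal RNA and box H/ACA snoRNAs (Snora) guide its pseudouridylation. Snord66 (probeset 17324110) stood at 7.37 in non-HPX and 6.25 in HPX at ZT2 and at 6.94 and 6.05 at ZT14. Snord1b stood at 7.88 and 7.05 at ZT2 and at 7.59 and 6.86 at ZT14. Both fell in the limma fit, Snord66 by 1.01 ± 0.12 (adjusted p = 0.0129) and Snord1b by 0.78 ± 0.11 (adjusted p = 0.0413). The other 8 were Snord73a, Snord58b, Snord35b, Snord55, Snord71, Snord61, Snord73b and Snord49a, at -0.92 to -0.59 at ZT2 and at -0.55 to -0.32 at ZT14. All 10 were box C/D genes, and in all 10 HPX was lower at ZT14 too.

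Of 47 box C/D genes measured, 38 were expressed, 32 of them lower and 6 higher at ZT2, with a median of -0.42. At ZT14, on arrays that the ZT2 comparison does not use, 37 of the 38 were lower, including all 32, and the median was -0.45. Over all genes 65.4% were below 0 at ZT2 and 46.8% at ZT14. Of the 26 box H/ACA genes, 23 were expressed: at ZT2 14 were lower and 9 higher, with a median of -0.08, while 21 were lower at ZT14 with a median of -0.23. Snora73b was the highest snoRNA at ZT2, at 0.51, and stood at -0.23 at ZT14. Over both classes (73 measured, 61 expressed, 3 through 1 array) the median was -0.23 at ZT2 and -0.32 at ZT14, and 10 and 4 genes were at least 1.5-fold lower, against 0.622% and 0.46% of all genes. Most snoRNAs are cut from the introns of other genes, while for Snord118, Snord13 and Snord89 no containing gene was found. For 43 expressed snoRNAs a single measured and expressed gene held the snoRNA in the RefSeq table (GRCm38.p6), 35 host genes in all; their median was 0.07 and 0 of them were 1.5-fold lower. The 5 snoRNAs past 1.5-fold with such a host had hosts between -0.07 and 0.08. How the recovery of short RNA in each pool enters these values was not tested.

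Cytosolic ribosomal protein genes, whose products join the RNA that snoRNAs modify, leaned the other way. Of 65 measured, 48 were expressed (2 through 1 array), 42 higher and 6 lower in HPX at ZT2, against 34.5% of all genes above 0, and the median was 0.12. None was past 1.5-fold, and the range ran from -0.11 (Rps7) to 0.41 (Rps27). At ZT14 the median was -0.07, with 18 above 0. Many have pseudogenes of near-identical sequence, so the copy measured is uncertain. Subunits of the respiratory chain, 65 of 71 expressed (2 through 1 array), had a median of -0.05 at ZT2, against -0.06 over all genes, with 46 lower and 19 higher, and -0.08 at ZT14.

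**Figure D3:**
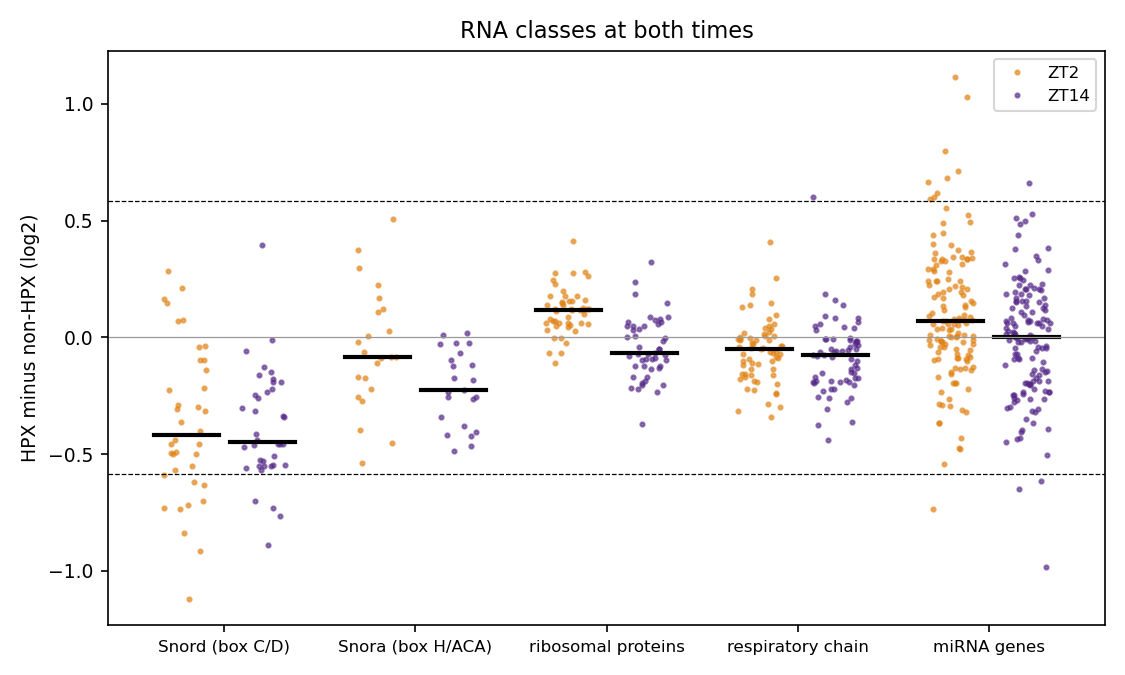
HPX minus non-HPX (log2) at ZT2 (orange) and ZT14 (purple) for expressed box C/D snoRNAs, box H/ACA snoRNAs, ribosomal protein genes, respiratory chain subunits and miRNA genes; points are genes, bars medians and dashed lines 1.5-fold. Box C/D snoRNAs lie mostly below 0 at both times (medians -0.42 and -0.45), and ribosomal protein genes have medians of 0.12 at ZT2 and -0.07 at ZT14.

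Genes under the hormones that depend on the pituitary were compared next. The glucocorticoid-responsive list had 22 genes, all measured and 15 expressed at ZT2, 2 of them through 1 array. Of the 15, 14 were lower and 1 higher at ZT2, where 65.4% of all genes were lower. By 1.5-fold 2 were lower, against 0.622% of all genes. The median was -0.20 at both times, against -0.06 at ZT2 and 0.01 at ZT14 over all genes. Rasd1 and Klf9 were the members past 1.5-fold. Klf9 (probeset 17358214), a Krüppel-like factor that both glucocorticoids and thyroid hormone induce, stood at 8.21 in non-HPX and 7.49 in HPX at ZT2 and at 8.25 and 7.40 at ZT14, and fell in the limma fit (-0.78 ± 0.11; adjusted p = 0.0413). Gjb6, the astrocyte connexin, stood at 7.10 and 6.53 at ZT2 and at 7.02 and 6.38 at ZT14. At ZT14 10 of the 15 were lower and 5 higher, where 46.8% of all genes were lower and 0.46% at least 1.5-fold lower. The 5 at least 1.5-fold lower were Klf9, Gjb6, Tsc22d3 (-0.23 at ZT2 and -1.21 at ZT14), Zbtb16 (-0.14 and -0.99) and the metallothionein Mt2 (-0.20 and -0.64). The 5 higher at ZT14 were Rasd1, Angptl4 (-0.28 at ZT2 and 0.20 at ZT14), the phosphatase Dusp1 (-0.18 and 0.18), Errfi1 and Per1. Whether the times differ was not tested. Tsc22d3 reached the floor in non-HPX alone at ZT2. The kinase inhibitor Cdkn1a differed by -0.31 and the receptor feedback inhibitor Errfi1 by -0.25 at ZT2. Fkbp5 and Sgk1 lay below the floor at ZT2.

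The thyroid hormone list had 11 genes, 6 of them expressed and 1 through 1 array alone. At ZT2 5 were lower, against 65.4% of all genes, and 2 past 1.5-fold (Aldh1a1 and Klf9), against 0.622%. The median was -0.41 at ZT2 and -0.26 at ZT14. Hr, a corepressor that thyroid hormone induces in brain, differed by -0.44 (5.56 in HPX, below the floor), while Rasd2 stood at 6.86 in non-HPX and 6.47 in HPX, and Sema7a at 6.55 and 6.22. At ZT14 Rasd2 and Sema7a each differed by 0.05, so their order was not that of ZT2. Thrsp stood at 6.93 and 6.94 at ZT2. Klf9 counts in both hormone lists.

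Of the growth hormone and insulin-like growth factor genes 17 were measured and 8 expressed, 2 through 1 array. At ZT2 7 were lower and 1 higher (65.4% of all genes were lower), 0 past 1.5-fold, with a median of -0.15. The growth factor receptor Igf1r differed by -0.24, the ghrelin receptor Ghsr by -0.23 and the binding protein Igfbp5 by -0.13. At ZT14 these 3 stood at 0.27, 0.37 and 0.35, and the list median was 0.16. Igf1, Cish and Socs2, which growth hormone is known to induce, lay below the floor. Among receptors and transporters for pituitary and target-gland hormones (19 genes, 15 measured, 8 expressed, 4 through 1 array) the median was -0.09. The estrogen receptor gene Esr1 had the widest gap, from 6.06 in non-HPX to 5.64 in HPX. Its HPX value lay below the floor, and at ZT14 Esr1 stood 0.27 higher in HPX. At ZT2 the glucocorticoid receptor Nr3c1 stood at 7.81 and 7.83, the thyroid hormone receptor Thra at 7.98 and 7.89, and the thyroxine transporter Slco1c1 at 7.99 and 8.04.

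Lipid synthesis genes stood lower in HPX at ZT2 by small amounts that ran one way. All 17 measured and expressed cholesterol synthesis genes were lower (1 through 1 array), with a median of -0.19 and a range from -0.57 to -0.10, and 0 past 1.5-fold. Mvk, the mevalonate kinase, stood at 6.95 in non-HPX and 6.38 in HPX, the dehydrogenase Nsdhl at 8.70 and 8.23, and the squalene synthase gene Fdft1 at 9.58 and 9.16. Srebf2, the factor that drives the pathway, stood at 9.05 and 8.68. At ZT14 16 of the 17 were lower, with a median of -0.20, where 46.8% of all genes lay below 0. All 10 measured fatty acid synthesis genes were lower at ZT2 as well, with a median of -0.24, led by the desaturases Fads1 (10.05 and 9.57) and Scd1 (9.91 and 9.44) and fatty acid synthase, Fasn (9.22 and 8.89). Their median at ZT14 was -0.06, with 6 of 10 lower. Over all expressed genes 34.5% stood above 0 at ZT2 and 53.1% at ZT14. None of these 27 genes passed the limma fit.

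The clock genes differed little at ZT2. Of 24 listed, 20 were measured and expressed, 16 lower and 4 higher, where 65.4% of all genes were lower. By 1.5-fold 0 differed, and the median was -0.10, against -0.06 over all genes. The widest gap was that of Npas2, a partner of BMAL1, from 7.20 in non-HPX to 6.83 in HPX. The repressor Nr1d1 stood at 9.65 and 9.34, Arntl, which encodes BMAL1, at 8.65 and 8.44, Per1 at 8.95 and 8.79 and Cry1 at 7.14 and 7.35. Clock stood at 10.24 in both. At ZT14 Nr1d1 and Arntl differed the other way, by 0.30 and 0.18.

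Of 20 SCN peptides and receptors, all measured and 14 expressed, 7 were lower and 7 higher at ZT2, with a median of -0.01 whose sign changed with the scaling. The core peptides Vip and Grp stood 0.12 and 0.11 higher in HPX, the GRP receptor Grpr 0.22 and neuromedin S (Nms) 0.30 higher. Avp, a shell peptide, was 0.47 lower, the prokineticin receptor Prokr2 0.52 lower (8.79 and 8.26), cholecystokinin (Cck) 0.47 lower and Sst 0.79 lower. Prok2 itself stood at 9.17 and 9.08. Each of these differences other than that of Sst lay short of 1.5-fold. The 12 SCN identity genes, all expressed, had 11 lower and 1 higher, where 65.4% of all genes were lower. Their median was -0.16, and Rasd1 alone was past 1.5-fold. Rgs16 stood at 11.17 and 11.03, Rorb at 10.70 and 10.61, and the synaptotagmin Syt10 at 11.55 and 11.50. At ZT14 9 of the 12 were higher, against 53.1% of all genes, with a median of 0.14.

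Immediate early genes, which neurons switch on when they fire, had 11 of 18 members expressed. At ZT2 9 were lower and 2 higher, where 65.4% of all genes were lower. Their median was -0.19, with Jun alone past 1.5-fold. The orphan receptor genes Nr4a2 (6.93 in non-HPX, 6.48 in HPX) and Nr4a1 (7.84 and 7.59), Fosl2 (8.33 and 8.01) and Arc (7.04 and 6.82) were lower. Fos stood at 6.63 in both, and Sik1 at 9.17 and 8.98. At ZT14 8 of the 11 were higher, against 53.1% of all genes, with a median of 0.09. Interferon response genes stood higher in HPX instead. Of 14, 12 were measured and 5 expressed (1 through 1 array), 4 of them higher at ZT2, with Ifit1 past 1.5-fold and a median of 0.35, where 34.5% of all genes were higher and 0.243% at least 1.5-fold higher. Ifit1 reached the floor in HPX alone, and without it, with both ZT2 values at the floor, the median was 0.25. Oasl2 stood at 6.22 and 6.57, the membrane protein Ifitm3 at 7.36 and 7.71, and Stat2 at 6.47 and 6.34. At ZT14 Ifitm3 was 0.22 lower in HPX.

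**Figure D4:**
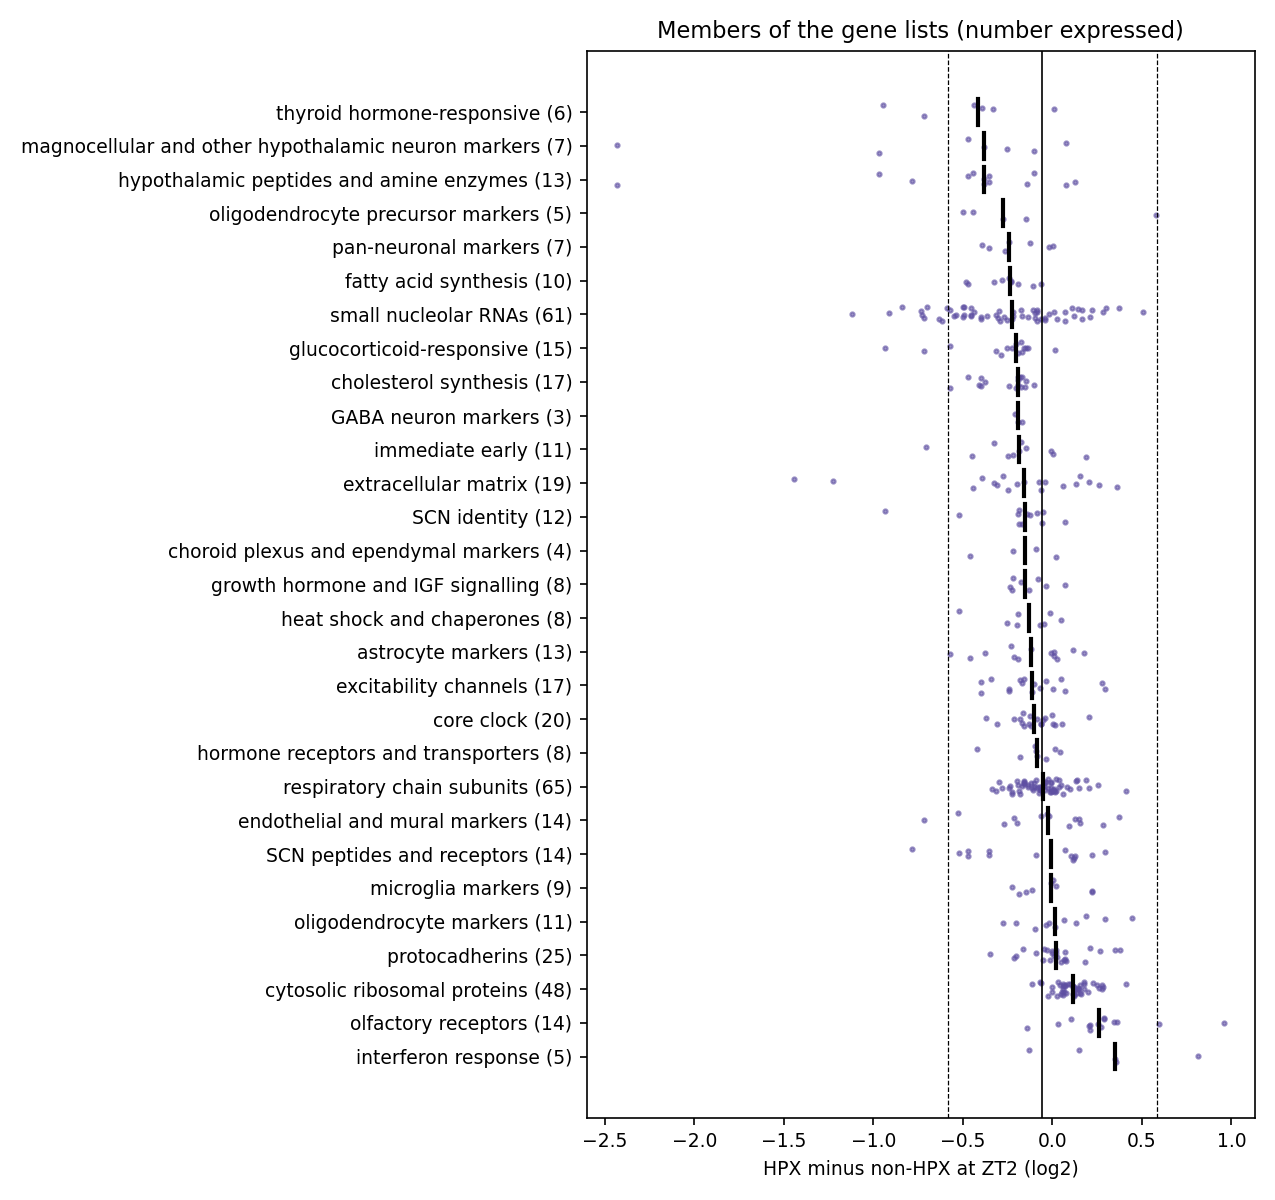
HPX minus non-HPX at ZT2 (log2) for the expressed members of each gene list with at least 3 expressed members (number in brackets); points are genes, thick bars list medians, the thin line the median of all expressed genes (-0.06) and dashed lines 1.5-fold. The lists run from thyroid hormone-responsive genes at -0.41 to interferon response genes at 0.35, and few members lie beyond 1.5-fold.

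Markers of the cell types in the tissue were set beside these results. Of all expressed genes 65.4% were lower at ZT2 and 46.8% at ZT14, with medians of -0.06 and 0.01. Astrocyte markers, all 13 expressed, had 8 lower and 5 higher at ZT2 and a median of -0.12. At ZT14 11 were lower and 2 higher, with a median of -0.15. At both times 8 were lower, against 28.03% of all genes. Gjb6 (-0.57), the aldolase Aldoc (-0.46) and the growth factor receptor Fgfr3 (-0.38) were low at ZT2, while Gfap (0.12), the water channel Aqp4 (0.03), Sox9 (0.01) and S100b (0.18) were not. At ZT14 Gfap (-0.11), Aqp4 (-0.03) and S100b (-0.06) lay below 0 and Sox9 (0.31) above it. The summed level of the 13 astrocyte markers was 13.34 in non-HPX and 13.16 in HPX at ZT2, and 13.31 and 13.15 at ZT14.

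Markers of oligodendrocytes (13 listed, 11 measured and expressed, 5 lower) had a median of 0.01, below 0 after median centring, with Opalin 0.45 higher and Mobp 0.20 lower in HPX. Precursor markers (7 measured, 5 expressed, 1 through 1 array, 4 lower) had -0.28 at ZT2 and -0.01 at ZT14. At ZT2 Olig1 stood at 7.69 and 7.41 and Gpr17 at 7.15 and 6.65. The precursor marker furthest from 0 at ZT2, Cspg4, stood higher in HPX, at 5.60 and 6.18, its non-HPX value being below the floor. Microglial markers (12 listed, 11 measured, 9 expressed, 5 lower) had -0.01, above 0 after cyclic loess or quantile normalization, with Ctss at 8.04 and 8.26 and C1qa at 7.02 and 6.79. Endothelial and mural markers (16 measured, 14 expressed, 8 lower) had -0.02, likewise above 0 after these. Among these Mfsd2a was past 1.5-fold and the efflux pump Abcb1a stood at 7.40 and 6.87, while Pecam1 (0.28) and the pericyte gene Rgs5 (0.37) stood higher in HPX.

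Pan-neuronal markers (8 measured, 7 expressed, 6 lower) had a median of -0.24, with Tubb3 at 9.09 and 8.70 and Snap25 at 12.02 and 12.01, and 0.09 at ZT14. The GABA neuron markers Gad2 (10.65 and 10.44), Gad1 and Slc32a1 were all lower at ZT2, with a median of -0.19, and all higher at ZT14, with 0.21. The glutamate neuron marker Slc17a6 stood at 6.88 and 6.66, and Slc17a7 and Slc17a8 lay below the floor. Choroid plexus and ependymal markers (10 listed, 9 measured, 4 expressed, 1 through 1 array) had -0.15, with Clic6 at 6.09 and 5.64 and Ccdc153 at 8.71 and 8.72. Of the tanycyte markers Col23a1 (6.41 and 5.98) and Scn7a (6.27 and 6.30) were expressed, and of the fibroblast markers Dcn (6.75 and 6.94). The summed level of pan-neuronal markers was 13.472 and 13.371 at ZT2, and that of endothelial and mural markers 11.24 and 11.17. The part of cell makeup in the gene differences was not tested.

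The ZT14 arrays gave a separate look at the effect of surgery, since the comparisons at the 2 times share no array. Of the 69 genes lower at ZT2, 49 were lower at ZT14 and 20 higher, where 46.8% of all genes were lower. Among the 69, 16 were at least 1.5-fold lower at ZT14 and 0 at least 1.5-fold higher. These 16 made 23.19% of the ZT2 list and 31.37% of the ZT14 list of 51 genes (0.46% of all). They were the 15 genes that fell in the limma fit and Mia, a secreted protein of cartilage (6.85 and 6.26 at ZT2, 6.52 and 5.93 at ZT14), which was named after its values were seen. In 47 of the 69, both HPX arrays lay below both non-HPX arrays, against 17.9% of all genes, although the ZT2 choice favours such genes.

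Of the 27 genes higher at ZT2, 15 were higher at ZT14, 11 lower and 1 equal, where 53.1% of all genes were higher. The share of higher genes was thus near that of all genes. In 15 both HPX arrays lay above both non-HPX arrays, against 8.55% of all genes, although here too the ZT2 choice favours such genes. A single gene was at least 1.5-fold higher at both times, 3.7% of the ZT2 list and 9.09% of the ZT14 list of 11 genes (0.0992% of all). This was the predicted gene Gm7361 (5.40 in non-HPX and 6.18 in HPX at ZT2, 5.34 and 6.02 at ZT14), and another, Gm12238, was at least 1.5-fold lower at ZT14. The median ZT14 difference was -0.19 over the 69 lower genes and 0.06 over the 27 higher genes, against 0.01 over all.

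**Figure D5:**
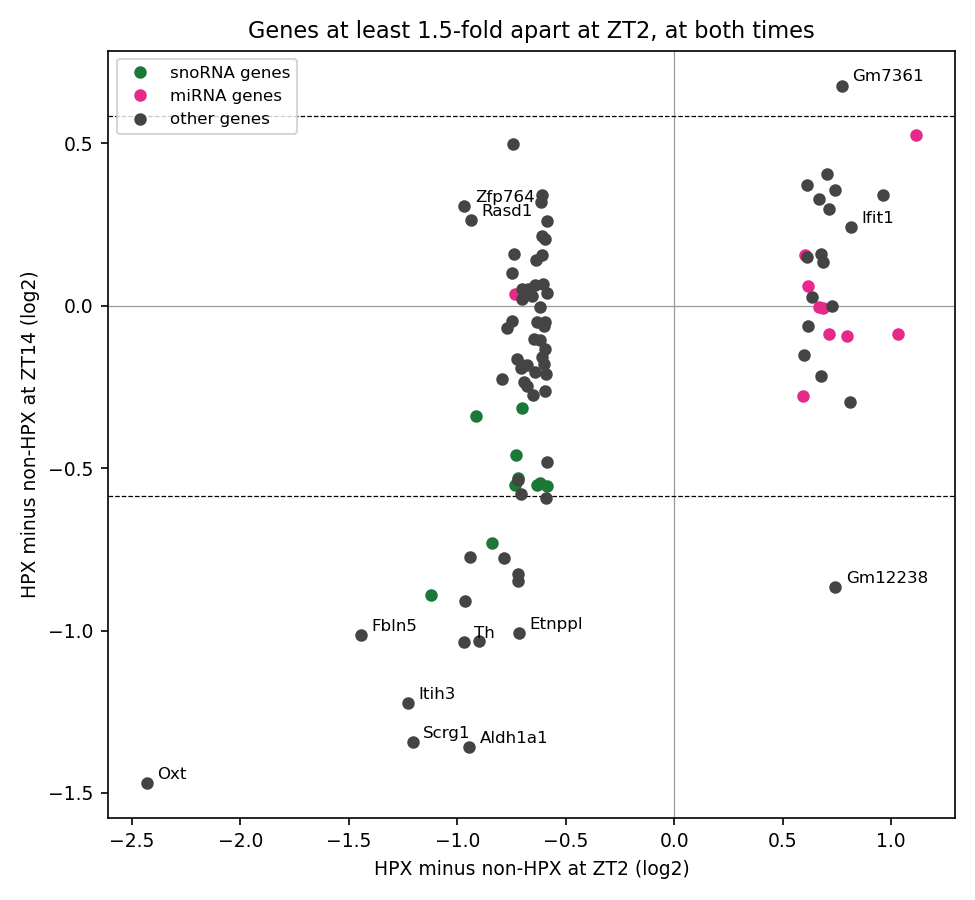
HPX minus non-HPX (log2) at ZT14 (vertical axis) against ZT2 (horizontal axis) for the 96 genes at least 1.5-fold apart at ZT2; green points are snoRNA genes, pink points miRNA genes, grey points others, and dashed lines mark 1.5-fold at ZT14. Oxt, Fbln5, Itih3, Scrg1, Th and Aldh1a1 lie low at both times, Rasd1 and Zfp764 lie above 0 at ZT14, and the miRNA genes lie mostly near 0 there.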

How the data were processed

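RNA from pooled SCN tissue was measured on 4 arrays, 1 for each combination of surgery (HPX, non-HPX) and time (ZT2, ZT14). The submitters' processing notes name RMA (robust multi-array average) and the Affymetrix Expression Console, without versions, as the source of the deposited log2 values of 41345 probesets. RMA scales the arrays to each other, which hides any shift common to most transcripts. The platform annotation named 1 gene for 23521 probesets, several for 1814 and none for 16010; the means of the 23521 gave 22180 genes, 1082 of them with several probesets.

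Differences are HPX minus non-HPX. The additive fit used limma 3.58.1 (lmFit, eBayes, two-sided, R 4.3.3) on expressed genes. It has 1 residual degree of freedom, the interaction of time and surgery, and 8.448 prior degrees of freedom, so its p-values lean on the spread pooled over genes. The spread between animals was not measured. Other steps used Python 3.11.15. Named genes are the 15 lowest and 15 highest outside predicted and non-coding names, list members past 1.5-fold, the member of each list with the largest difference and that with the highest value, and the neighbours of the floor; other members are examples. Members, lists and tests were chosen with earlier results of these data known. Alternatives were the expression filter, the scaling, the choice of probeset, the fold threshold and the variance prior.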

Additional observations from a re-analysis of the deposited data

Results flagged for a closer look

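These results were picked out because HPX stood on opposite sides of non-HPX at the 2 times. With 1 array in a group the difference between the times was not tested, and by the same sign rule many other genes would be named: 4137 of the 11090 expressed genes were lower in HPX at ZT2 and higher at ZT14. Past 1.5-fold at ZT2, 15 genes lay on the other side of 0 at ZT14 by more than the SD between probesets (0.15), 10 of them lower and 5 higher at ZT2. Among the genes that the rule for named genes takes, Rasd1 differed by -0.94 at ZT2 and 0.26 at ZT14 and Zfp764 by -0.97 and 0.31. Crip1 differed by 0.68 and -0.22, Vmn2r54 by 0.81 and -0.30 and Olfr749 by 0.60 and -0.15. The largest such gap among the others was that of the predicted gene Gm12238, at 0.74 and -0.87, followed by Gm20783 at -0.74 and 0.50.

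Among the gene lists the medians were -0.16 and 0.14 for SCN identity genes, -0.19 and 0.09 for immediate early genes, -0.15 and 0.16 for growth hormone and IGF signalling genes, and -0.24 and 0.09 for pan-neuronal markers. Ribosomal protein genes had 0.12 and -0.07. Over all expressed genes the medians were -0.06 and 0.01.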

How the results depend on the processing

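The 69 lower and 27 higher genes at ZT2 became 264 and 487 without the expression filter and 29 and 6 with the floor at the 75th percentile. They became 47 and 15 when both ZT2 values had to reach the floor. At 2-fold 5 and 2 remained past the threshold. Median centring gave 110 lower genes. The higher genes made 28.12% of the total, against 64.85% without the filter, 17.14% at the stricter floor and 14.06% after median centring. The 16 genes lower at both times became 39 without the filter and 10 at the stricter floor. The 1 higher at both times became 20 without the filter, 0 with both values at the floor or at the stricter floor, and 2 after cyclic loess, after quantile normalization or with the highest probeset. In the limma fit the 15 lower genes became 0 without the filter (with 1167 at unadjusted p under 0.05). They became 12 with both ZT2 values at the floor, 10 at the stricter floor and 39 after median centring. The 0 higher genes became 1, 3 and 4 after cyclic loess, quantile normalization and median centring. The cause was not tested beyond the number of genes each filter leaves.

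Of the 30 named genes past 1.5-fold, all kept their sign, and 26 stayed past it under every alternative that retained them; Fgf22, Olfr749, Tsx and Vmn1r159 did not, reaching 0.58, 0.54, 0.56 and 0.55. The medians of SCN peptides, oligodendrocyte, microglial, and endothelial and mural markers and protocadherins, all near 0, changed sign under at least 1 scaling, for oligodendrocyte markers and protocadherins median centring alone. These 2 and the microglial markers stayed above the all-gene median under 7 of 7 alternatives. The all-gene median itself was -0.06, and -0.01 without the filter, -0.02 after cyclic loess, -0.03 after quantile normalization and -0.12 after median centring. Those of hypothalamic peptides (-0.10), magnocellular and other hypothalamic neurons (-0.07) and olfactory receptors (0.09) moved toward 0 without the filter, and that of the matrix list to -0.40 at the stricter floor. No paired analysis was possible because each group has 1 array and the labels carry no replicate numbers to pair by; the limma fit matches arrays by time only. Signal near the floor limits the 12 higher and 22 lower genes with a ZT2 value below it.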

Other observations

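Further gene groups were measured at ZT2, where 65.4% of all genes were lower and the all-gene median was -0.06. Ion channels of excitability (19 listed, 18 measured, 17 expressed) had 12 members lower in HPX and 5 higher, 0 past 1.5-fold and a median of -0.11. The pacemaker channel gene Hcn2 stood at 7.46 in non-HPX and 7.06 in HPX, the two-pore channel Kcnk1 at 8.56 and 8.16 and the fast potassium channel Kcnc1 at 7.02 and 6.68, whereas the sodium channel Scn1a stood at 7.32 and 7.62 and Scn2a at 9.65 and 9.66. Heat shock genes and chaperones (12 listed, 11 measured, 8 expressed) had 7 lower and 1 higher, 0 past 1.5-fold and a median of -0.13. Hsph1 stood at 9.78 and 9.25 at ZT2 and differed by 0.03 at ZT14, and Hsp90b1 stood at 11.14 and 11.10. Protocadherins, adhesion molecules of neurons, had 25 of 35 members expressed (2 through 1 array), with 14 higher, 11 lower and a median of 0.02 at ZT2, below 0 after median centring, against 0.16 at ZT14.

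Of 1088 olfactory receptor genes 14 were expressed, 6 through 1 array, and 13 of these were higher in HPX at ZT2, against 34.5% of all genes, with a median of 0.26. The floor was reached in HPX alone by 5 of the 14, which had to be higher there, and without the filter the median was 0.09. Of 5356 probesets without a gene name at or above the floor, 211 (3.94%) were at least 1.5-fold lower and 306 (5.713%) at least 1.5-fold higher in HPX at ZT2, against 0.622% and 0.243% of named genes. The former are shares of single probesets and the latter of genes, each the mean of its probesets, so the units differ. The kinds of probeset without a name were not separated. The Y-linked gene Eif2s3y stood 0.50 higher in HPX at ZT2, at 8.36 against 7.85, and Kdm5d and Uty 0.07 and 0.10 higher.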
